A study of Mus musculus with 6 samples.

Results

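The genes described here encode the extracellular and membrane side of Wnt signalling, together with its feedback genes and its nuclear TCF/LEF factors. They were chosen by name from the count files: every gene whose symbol begins with Wnt, Fzd, Sfrp, Dkk or Rspo and a family suffix, and 21 others named one by one. This gave 63 of 23337 genes, of which 19 encode Wnt ligands, 4 R-spondins, 2 ligand export proteins, 10 Frizzled receptors, 5 co-receptors, 11 secreted antagonists, 5 membrane antagonists, 3 feedback regulators and 4 TCF/LEF factors. The naming rule uses symbols and not measured values, but the members were chosen with earlier results of these data known.

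Wnt proteins are secreted lipid-modified ligands that bind Frizzled receptors. In the canonical branch they also engage the co-receptors Lrp5 and Lrp6, beta-catenin is spared from destruction and acts with TCF/LEF factors in the nucleus, and targets such as Axin2 feed back on the pathway. Other branches run through Ror and Ryk receptors to cell polarity and calcium signals. In the mammary gland, Wnt signals from luminal and stromal cells are known to sustain basal stem cells, and R-spondins, which keep Frizzled receptors at the cell surface, act as their partners.

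The study compared basal epithelial cells, the outer contractile layer of the mammary gland, between mice with and without the intermediate filament protein vimentin. There were 4 libraries from mice homozygous for the knockout allele (Vimtm1Cba/tm1Cba) and 2 from wild-type mice (Vimwt/wt). The mice, aged 15 weeks, came from a 129/Sv X C57BL/6 cross, and each library pooled cells of 2 to 3 mice, so the spread between libraries is one between pools. Live cells were sorted as CD45neg, CD31neg, CD24low and CD49fhi, and were not cultured. The labels name no tissue-specific driver, so the stroma and the luminal layer around the sorted cells carried the same alleles. A day code divides the libraries into experiment 1 (knockout 1, knockout 2 and wild type 1) and experiment 2 (knockout 3, knockout 4 and wild type 2).

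Total counts per library ran from 25347967 to 31200622. Vim had 92.3, 104, 111 and 111 CPM (read counts scaled to library size) in the knockout libraries and 215 and 241 CPM in the wild-type libraries (log2 fold change -1.12, SE 0.12, edgeR adjusted p = 0.019). The basal keratin gene Krt14 was at 4019 to 4550 CPM in the knockout libraries and at 3904 and 4562 CPM in the wild-type libraries. Krt5 was at 1701 to 2306 and at 2358 and 2276 CPM, and Trp63 at 602 to 750 and at 741 and 697 CPM. The 11 basal markers summed to 15163 to 18016 CPM in the knockout libraries and to 17716 and 17714 CPM in the wild-type libraries. Of the 11, 5 had log2 fold changes above 0 and 6 below. The luminal keratin gene Krt8 was also read, at 581 to 678 CPM in the knockout libraries and 642 and 742 CPM in the wild-type libraries. Ptprc, which encodes the CD45 of the gate, stayed at or below 0.126 CPM in the knockout libraries and was at 0.456 and 0 CPM in wild type 1 and 2. The summed level of 15 endothelial markers was 51.9 to 68.8 CPM in the knockout libraries, against 198 CPM in wild type 1 and 82.7 CPM in wild type 2. In bulk libraries, fewer cells of a type and less RNA per cell cannot be told apart.

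Of the 63 genes, 47 passed the filter on low counts and were tested, and 16 did not. The filter asks for a minimum (0.348 CPM) in as many libraries as the smaller group holds. Wnt7a was the 1 tested member that reached it in no wild-type library. Wnt2b reached it in wild type 2 (0.50 CPM) but not in wild type 1 (0.182 CPM). Both therefore passed only with the knockout libraries. Levels of different genes are compared as RPKM, which is CPM divided by exon length in kilobases. By that scale the co-receptor gene Lrp6 was the highest member, at 105 ± 14.5 RPKM in knockout and 101 ± 24.4 RPKM in wild-type cells (SD, n = 4 and 2). The receptor gene Fzd7 followed at 78.9 ± 10.7 RPKM in knockout and 78.8 ± 7.90 RPKM in wild-type cells. The co-receptor genes Ryk (63.3 RPKM in knockout and 46.0 in wild-type cells) and Lrp5 (43.6 and 51.1) also averaged above 35 RPKM in both groups. So did the ligand genes Wnt5b and Wnt10a, the cargo receptor gene Wls and the nuclear factor gene Tcf7.

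**Figure D1:**
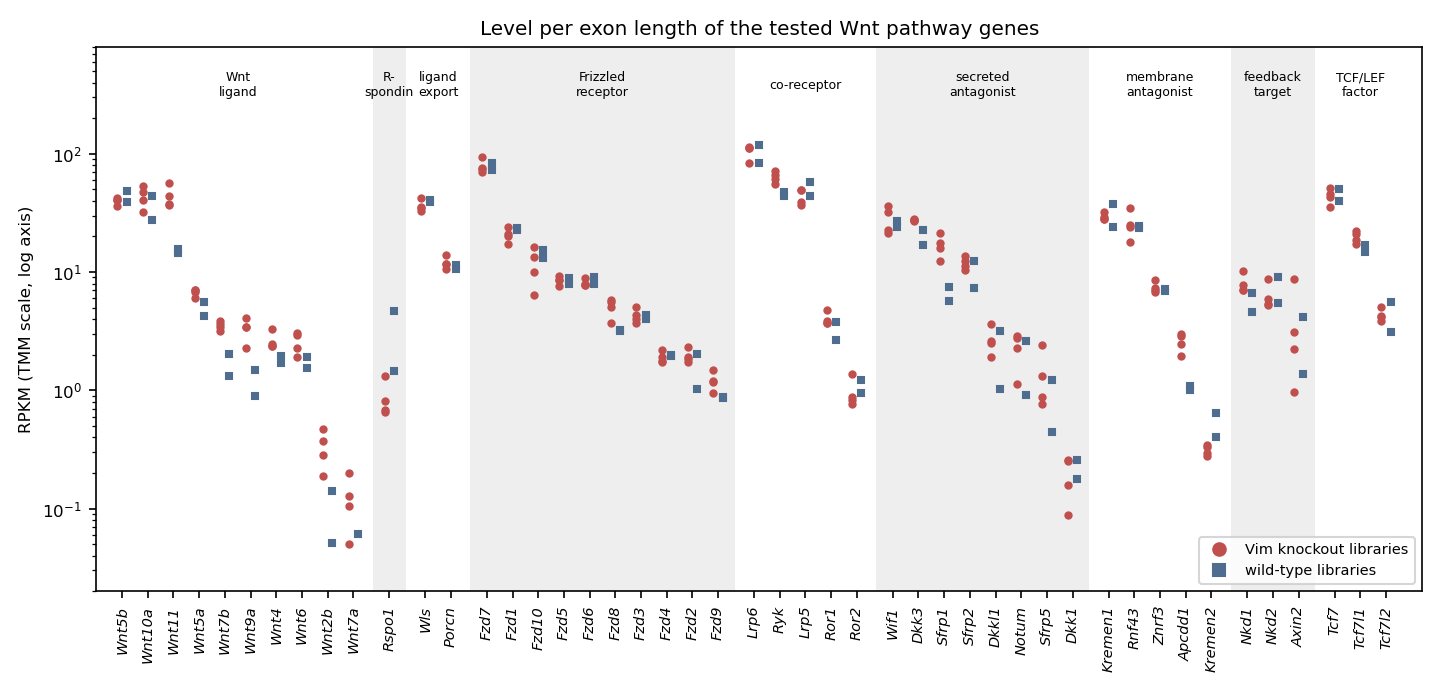
Level per exon length (RPKM, log axis) of each tested member in each knockout (n = 4) and wild-type (n = 2) library, grouped by role and ordered by mean level; Wnt7a in wild type 1 is at 0 and not drawn. Lrp6 (means of 105 RPKM in knockout and 101 in wild-type cells) and Fzd7 (78.9 and 78.8) lie at the top, and the groups of Wnt11 (43.7 and 15.1) lie apart.

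The ligand gene called both with and without the replicate block (a fit with experiment as an added term) was Wnt11, which encodes a ligand best known for non-canonical signalling in convergent extension and kidney branching. It lies on chromosome 7, positions 98838845 to 98854747 (mm10, forward strand). Wnt11 was at 123, 157, 105 and 102 CPM in knockout 1 to 4 and at 40.4 and 43.6 CPM in wild type 1 and 2. Every knockout library lay above both wild-type libraries, and knockout 2 was the highest. Wnt11 rose 2.90-fold (log2 fold change 1.54, SE 0.19, edgeR adjusted p = 0.0482), with log2 differences of 1.78 within experiment 1 and 1.25 within experiment 2. It was the 1 member called higher in the fit by genotype alone, where 0.0575% of all tested genes were called higher. No member was called lower there, against 0.0215% of all tested genes. At an unadjusted p under 0.05, 13 members were higher and 1 was lower by edgeR, against 4.48% and 4.09% of all tested genes.

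The call of Wnt11 held without knockout 2 (adjusted p = 0.0324). It was lost without wild type 1 (0.285) or 2 (0.116) and without knockout 1 (0.0631), 3 (0.11) or 4 (0.0787), where the log2 fold change was 1.501 to 1.61. It was also lost with total counts in place of TMM scaling (0.0588) and with only genes over 1 CPM in at least 2 libraries kept (0.0544). With experiment as a replicate block its adjusted p was 0.00254, and this call was lost without wild type 1 (0.126).

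RefSeq annotates 2 starts of Wnt11, and the stretches of 250 bases before them are printed here because Wnt11 is the member that rose, beside that of Wnt9a, which encodes another ligand. The motif searched was CTTTGAT, a core bound by TCF/LEF factors, on both strands (ATCAAAG on the other), and its matches are in capitals. The sequences are from RefSeq (GRCm38.p6), all on the forward strand: the upstream Wnt11 start at chr7:98834862-98835111, the Wnt11 start used by the count files at chr7:98838595-98838844 and Wnt9a at chr11:59306680-59306929.
Wnt11 upstream start: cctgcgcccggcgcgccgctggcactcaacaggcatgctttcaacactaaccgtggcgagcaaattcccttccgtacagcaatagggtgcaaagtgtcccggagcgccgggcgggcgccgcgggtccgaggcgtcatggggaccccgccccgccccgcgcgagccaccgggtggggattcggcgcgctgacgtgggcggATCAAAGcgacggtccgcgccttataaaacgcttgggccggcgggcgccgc
Wnt11 start in the files: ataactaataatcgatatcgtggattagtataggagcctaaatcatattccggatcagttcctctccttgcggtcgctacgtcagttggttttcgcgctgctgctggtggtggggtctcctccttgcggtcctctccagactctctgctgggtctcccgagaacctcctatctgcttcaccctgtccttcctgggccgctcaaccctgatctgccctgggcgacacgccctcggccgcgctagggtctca
Wnt9a: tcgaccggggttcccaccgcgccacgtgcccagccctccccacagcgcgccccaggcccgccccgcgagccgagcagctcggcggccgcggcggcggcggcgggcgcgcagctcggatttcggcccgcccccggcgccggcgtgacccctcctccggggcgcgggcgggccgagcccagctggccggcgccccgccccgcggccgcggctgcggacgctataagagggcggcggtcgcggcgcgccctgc
The upstream Wnt11 window holds 1 match, on the reverse strand, whose first base lies 51 bases before the start. The other windows shown hold none. The motif occurred in 3.21% of 32851 promoter windows of this length and in 2 of 51 windows of the 42 members that matched the table. A match describes the letters and is not a measured site.

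With experiment as a replicate block, 5 members rose and 1 fell, against 1.12% and 0.438% of all tested genes called higher and lower in that fit. They were the ligand genes Wnt11, Wnt9a and Wnt7b, the antagonist genes Sfrp1 and Apcdd1, and, lower, the R-spondin gene Rspo1. DESeq2 on genotype alone called the same 6 genes, with background shares of 1.17% higher and 0.704% lower. The block calls rest on the wild-type libraries: without wild type 1 none of the 6 was called, and without wild type 2 Wnt11 alone was called. Over all genes the block calls numbered 4 without wild type 1 and 34 without wild type 2, so fewer calls were made throughout.

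**Figure D2:**
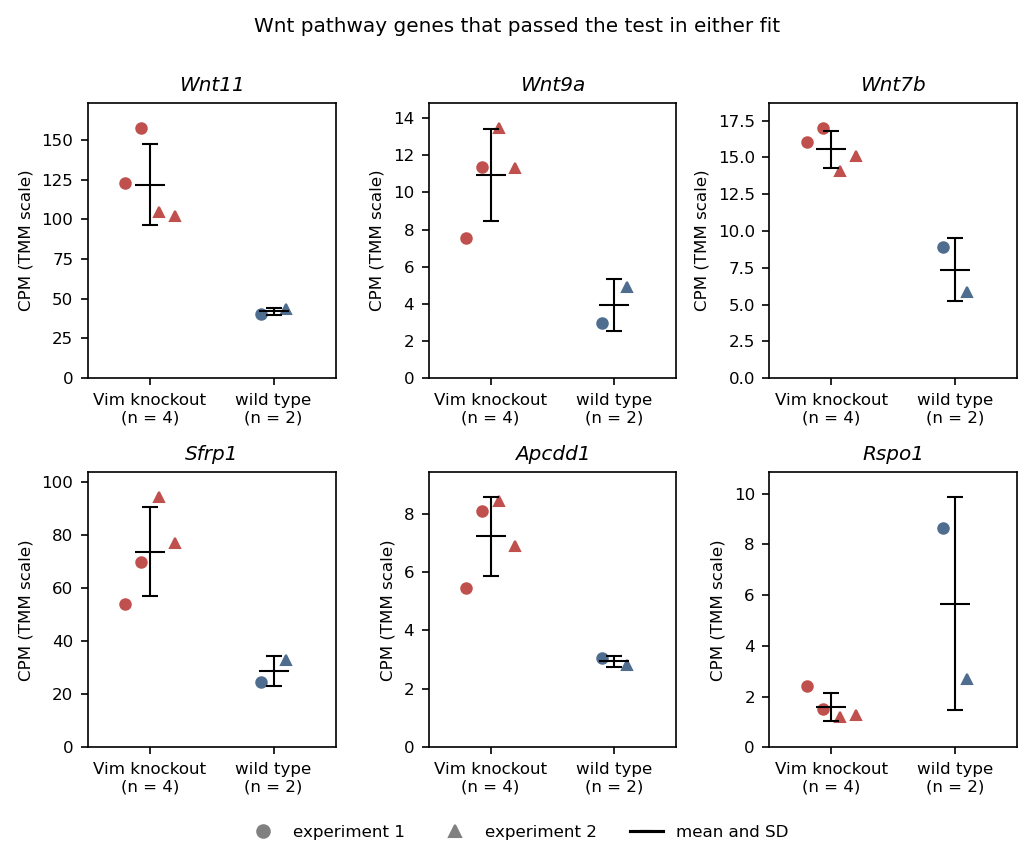
CPM in each library for the 6 members called with experiment as a replicate block, knockout (n = 4) beside wild type (n = 2), with the mean and SD and the experiment given by the marker. In each of the 6 panels the groups do not overlap, with knockout above wild type for Wnt11, Wnt9a, Wnt7b, Sfrp1 and Apcdd1 and below it for Rspo1.

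Wnt9a, whose product acts in joint and blood stem cell development, was at 7.54, 11.4, 13.5 and 11.3 CPM in knockout 1 to 4 and at 2.95 and 4.93 CPM in wild type 1 and 2. The groups did not overlap, and within each genotype the libraries of experiment 2 averaged higher. Its log2 fold change was 1.498 with the replicate block (SE 0.22, edgeR adjusted p = 0.0136), and 1.48 by genotype alone (adjusted p = 0.203). The block call was lost without wild type 1 (0.254) or wild type 2 (0.128). Wnt7b, which encodes a ligand of lung and kidney development, was at 16.1, 17.0, 14.1 and 15.1 CPM in knockout 1 to 4, against 8.91 and 5.85 CPM in wild type 1 and 2. The knockout libraries lay close together and above both wild-type libraries. Its log2 fold change was 1.09 with the replicate block (SE 0.16, edgeR adjusted p = 0.0136), and 1.07 by genotype alone (adjusted p = 0.176). The block call was lost without wild type 1 (0.147), wild type 2 (0.201) or knockout 4 (0.052). Exons of Wnt7b share 38 bases with the antisense gene AU022754, and the counting used strand.

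Of the 10 tested ligand genes, 7 were higher in every knockout library than in both wild-type libraries and none was lower, where 7.6% and 8.56% of all tested genes were higher and lower in this way. The 7 include Wnt2b, which passed the filter only with the knockout libraries. Wnt8a, which did not pass it, was lower in every knockout library (0 to 7 counts, against 15 and 9 in wild type 1 and 2). Of the 7, the 4 not called in either edgeR fit were Wnt2b, Wnt4, Wnt5a and Wnt6. Wnt5a, which encodes a non-canonical ligand that restrains ductal growth in the mouse mammary gland, was at 30.7, 30.6, 29.9 and 26.6 CPM in the knockout libraries and at 24.4 and 18.6 CPM in the wild-type libraries. Its log2 fold change was 0.46 (SE 0.15, edgeR adjusted p = 0.406). Wnt4, the ligand gene that progesterone induces in luminal cells, was at 12.5, 9.09, 9.50 and 9.09 CPM in the knockout libraries and at 6.45 and 7.43 CPM in the wild-type libraries, with knockout 1 above the rest. Its log2 fold change was 0.54 (SE 0.20, edgeR adjusted p = 0.507). Wnt6 was at 6.32, 4.74, 6.11 and 3.93 CPM in the knockout libraries and at 3.92 and 3.19 CPM in the wild-type libraries, so that knockout 4 and wild type 1 nearly met. Wnt2b was low, at 1.01, 0.672, 1.68 and 1.34 CPM in the knockout libraries and at 0.182 and 0.50 CPM in the wild-type libraries. Its log2 fold change of 1.80 had an SE of 0.58 (edgeR adjusted p = 0.394).

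The other abundant ligand genes did not separate by genotype. Wnt5b, a paralog of Wnt5a, was at 100.2, 96.9, 97.3 and 85.4 CPM in knockout 1 to 4 and at 92.6 and 114 CPM in wild type 1 and 2, with overlapping groups (log2 fold change -0.12, SE 0.12, edgeR adjusted p = 0.915). Wnt10a, which encodes a canonical ligand of skin appendages, was at 79.8, 62.7, 93.0 and 105.6 CPM in knockout 1 to 4 and at 53.7 and 86.2 CPM in wild type 1 and 2. Its values followed the experiment: each library of experiment 2 lay above each library of experiment 1. Summed over the 19 ligand genes, the level per exon length was 144 to 150 RPKM in the knockout libraries and 93.5 and 119 RPKM in the wild-type libraries, or 147 ± 2.10 RPKM in knockout and 106 ± 17.9 RPKM in wild-type cells (SD, n = 4 and 2). Wnt11 made up 29.7 ± 5.78% of that sum in knockout and 14.3 ± 1.67% in wild-type cells. Wnt5b made up 27.3 ± 1.67% in knockout and 41.2 ± 0.871% in wild-type cells, and Wnt10a 29.7 ± 6.79% and 33.1 ± 5.46%. The 3 genes therefore had like shares in knockout cells, whereas Wnt11 was the smallest of them in wild-type cells.

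Wnt7a, the other tested ligand gene, was at 0.158 to 0.63 CPM in the knockout libraries and at 0 and 0.192 CPM in wild type 1 and 2, overlapping (log2 fold change 2.06, SE 1.03). The remaining 9 ligand genes were not tested. Their highest count in any library was 45, for Wnt3 in knockout 2, and the next were 15 each for Wnt8a and Wnt10b. Wnt8b, Rspo4 and Dkk4 had 0 counts in all 6 libraries, which allows up to 0.0912 to 0.119 CPM per library (3 counts, counting error only). Wnt1, known from its proviral activation in mouse mammary tumours, and its neighbour Wnt10b had 6 and 45 counts over all 6 libraries. Several ligand genes lie beside one another, as Wnt9a does 16.2 kb from Wnt3a and Wnt6 6.7 kb from Wnt10a, and in both pairs the members differed in level: Wnt3a had 1 count over all 6 libraries.

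R-spondins bind Lgr receptors and draw the ubiquitin ligases Rnf43 and Znrf3 away from Frizzled receptors. Rspo1, the R-spondin gene known from mammary luminal cells, was at 2.42, 1.501, 1.21 and 1.26 CPM in knockout 1 to 4 and at 8.63 and 2.69 CPM in wild type 1 and 2. The groups did not overlap, but wild type 2 lay close to knockout 1 and wild type 1 far above both. With the replicate block Rspo1 fell (log2 fold change -1.68, SE 0.30, edgeR adjusted p = 0.0286), and by genotype alone its log2 fold change was -1.82 (SE 0.46, adjusted p = 0.273). The block value was -1.11 without wild type 1 (adjusted p = 0.475), and the call was also lost without wild type 2 (0.0807) or knockout 4 (0.0613). Wild type 1 was also the library with the highest summed levels of endothelial markers (given above, although the gate was CD31neg), luminal progenitor markers (1552 CPM), hormone-sensing luminal markers (330 CPM), fibroblast markers (169 CPM) and pericyte markers (57.1 CPM). Calca gave 76.4 CPM of the hormone-sensing sum in wild type 1 and 7.10 CPM in knockout 1, which summed to 322 CPM. Lcn2 gave 1338 CPM of the luminal progenitor sum in wild type 1 and 1277 CPM in knockout 3, which summed to 1507 CPM. The ranks by these sums rest on Calca and Lcn2. The part of all these markers in the Rspo1 result was not tested. Rspo2 and Rspo3 had 2 and 1 counts over all libraries.

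The export genes did not separate. Wls, whose product carries Wnt proteins to the cell surface, was at 91.1 to 117 CPM in the knockout libraries and 109 and 112 CPM in the wild-type libraries. Porcn, the acyltransferase that adds the lipid, was at 20.3 to 26.4 CPM in the knockout libraries and 20.1 and 21.9 CPM in the wild-type libraries. The groups overlapped for both genes, and their log2 fold changes were -0.14 (SE 0.12) and 0.12 (SE 0.15).

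No Frizzled gene was called with or without the replicate block by edgeR or by DESeq2. By edgeR 1 of 10 was higher at an unadjusted p under 0.05, against 4.48% of all tested genes. Fzd7, a receptor gene known from mammary stem cells, was at 339.6, 455, 359 and 364 CPM in knockout 1 to 4 and at 352 and 406 CPM in wild type 1 and 2, with a log2 fold change of 0.00 (SE 0.15). Fzd1 was at 76.0 to 106 CPM in the knockout libraries and at 103 and 99.9 CPM in the wild-type libraries, and Fzd10 at 19.2 to 48.4 CPM and at 39.5 and 45.6 CPM, overlapping in both cases. Fzd8 and Fzd9 were the 2 Frizzled genes whose groups did not overlap, both higher in knockout cells, as were 7.6% of all tested genes. Fzd8 was at 12.4, 19.5, 18.6 and 16.8 CPM in the knockout libraries and at 10.7 and 10.8 CPM in the wild-type libraries (log2 fold change 0.65, SE 0.20, edgeR adjusted p = 0.382). Fzd9 was at 2.01, 3.16, 2.52 and 2.48 CPM in the knockout libraries and at 1.85 and 1.81 CPM in the wild-type libraries (log2 fold change 0.47, SE 0.29, edgeR adjusted p = 0.762). The 5 other Frizzled genes had log2 fold changes between -0.08 (Fzd6) and 0.35 (Fzd2), and their groups overlapped.

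Of the co-receptor genes, Ryk, which encodes an atypical kinase-like receptor of non-canonical Wnt signals, was at 182, 198, 214 and 233 CPM in knockout 1 to 4 and at 144 and 156 CPM in wild type 1 and 2. All 4 knockout libraries lay above both wild-type libraries, and within each genotype experiment 2 was higher. Its log2 fold change was 0.46 (SE 0.13, edgeR adjusted p = 0.317), and 0.0571 was the adjusted p with the replicate block. Lrp6 was at 781, 1043, 1061 and 1053 CPM in knockout 1 to 4 and at 783 and 1107 CPM in wild type 1 and 2, so the low values were knockout 1 and wild type 1 (log2 fold change 0.06, SE 0.19). Lrp5 was at 254, 254, 204 and 191 CPM in knockout 1 to 4 and at 299 and 229 CPM in wild type 1 and 2, overlapping (log2 fold change -0.23, SE 0.17, edgeR adjusted p = 0.836). The receptor kinase genes Ror1 and Ror2 had overlapping groups, with log2 fold changes of 0.31 (SE 0.20) and -0.16 (SE 0.29).

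Among the secreted antagonists 1 of 8 tested genes was called with the block, against 1.12% of all tested genes called higher: Sfrp1. It encodes a soluble Frizzled-like protein that binds Wnt ligands, and it lies on chromosome 8, positions 23411502 to 23449632. Sfrp1 was at 53.8, 70.0, 94.3 and 77 CPM in knockout 1 to 4 and at 24.8 and 32.8 CPM in wild type 1 and 2. The lowest knockout library was above the higher wild-type library, and experiment 2 was higher in both genotypes. Sfrp1 rose with the replicate block (log2 fold change 1.35, SE 0.14, edgeR adjusted p = 0.00248), with log2 differences of 1.31 and 1.37 within experiments 1 and 2, and its adjusted p by genotype alone was 0.15. The block call was lost without wild type 1 (0.137) or wild type 2 (0.0715), where the log2 fold changes were 1.40 and 1.32.

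Dkk3, whose product is a divergent Dickkopf protein, was at 92.9, 92.3, 94.0 and 90.5 CPM in knockout 1 to 4 and at 76.4 and 56.4 CPM in wild type 1 and 2. The knockout libraries lay close together and above both wild-type libraries (log2 fold change 0.48, SE 0.13, edgeR adjusted p = 0.317, and 0.0699 with the replicate block). Wif1, a Wnt-binding inhibitor gene, was at 47.5 to 81.6 CPM in the knockout libraries and at 61.2 and 53.6 CPM in the wild-type libraries, overlapping. Sfrp2, Sfrp5, Dkk1, Dkkl1 and Notum also overlapped, with log2 fold changes from -0.17 (Dkk1) to 0.68 (Sfrp5, SE 0.57), and Sfrp4, Dkk2 and Dkk4 were not tested. Dkk1, the best-known Lrp5 and Lrp6 blocker, was low, at 0.197 to 0.571 CPM in the knockout libraries and 0.395 and 0.577 CPM in the wild-type libraries. Summed over the 11 genes, secreted antagonists were at 91.0 ± 11.1 RPKM in knockout and 66.9 ± 2.38 RPKM in wild-type cells (SD, n = 4 and 2).

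The membrane antagonist Apcdd1, an inhibitor that binds Wnt and Lrp proteins, was at 5.47, 8.10, 8.43 and 6.89 CPM in knockout 1 to 4 and at 3.07 and 2.81 CPM in wild type 1 and 2. The groups were apart, with knockout 1 nearest to wild type. Apcdd1 rose with the replicate block (log2 fold change 1.29, SE 0.24, edgeR adjusted p = 0.0322), and its adjusted p by genotype alone was 0.176. The block call was lost without wild type 1 (0.254), wild type 2 (0.332), knockout 3 (0.0697) or knockout 4 (0.0801).

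The ubiquitin ligase genes that remove Frizzled receptors did not separate. Rnf43 was at 77.7, 151, 108 and 103 CPM in knockout 1 to 4 and at 103 and 105 CPM in wild type 1 and 2, and Znrf3 at 42.7 to 54.0 CPM and at 45.2 and 43.6 CPM. For both genes knockout 1 was the lowest and knockout 2 the highest of the 6 libraries. The Dickkopf receptor gene Kremen1 was at 138 to 159 CPM in the knockout libraries and at 185 and 118 CPM in wild type 1 and 2, so the wild-type libraries enclosed the others. Kremen2 was near the filter's limit, at 0.723, 0.593, 0.705 and 0.63 CPM in the knockout libraries and at 1.37 and 0.847 CPM in the wild-type libraries (log2 fold change -0.74, SE 0.38, edgeR adjusted p = 0.675). With Rspo1 it was 1 of the 2 tested members lower in every knockout library, as were 8.56% of all tested genes. Wnt8a, which was not tested, was lower too, with 0 to 7 counts in the knockout libraries and 15 and 9 counts in the wild-type libraries.

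None of the 3 feedback genes was called by edgeR, with or without the block, or by DESeq2. By edgeR 1 was higher at an unadjusted p under 0.05, against 4.48% of all tested genes. Axin2, the most used target gene, was at 13.3, 37.5, 9.54 and 4.13 CPM in knockout 1 to 4 and at 17.8 and 5.81 CPM in wild type 1 and 2. Its spread within knockout cells was wider than the gap between genotypes (log2 fold change 0.44, SE 0.79, edgeR adjusted p = 0.959), and without knockout 2 the log2 fold change was -0.38. Knockout 2 was also the library with 45 counts of Wnt3 (1.78 CPM), where the others had at most 1 count. Nkd1, an inhibitor of Dishevelled and a target gene, was at 34.9, 45.4, 31.6 and 31.3 CPM in knockout 1 to 4 and at 29.8 and 20.7 CPM in wild type 1 and 2. The groups did not overlap, and both wild types were below the lowest knockout library (log2 fold change 0.50, SE 0.21, edgeR adjusted p = 0.55). Nkd2 was at 17.1 to 28.0 CPM in the knockout libraries and at 29.3 and 17.7 CPM in the wild-type libraries, highest in wild type 1 and in knockout 1, both of experiment 1.

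**Figure D3:**
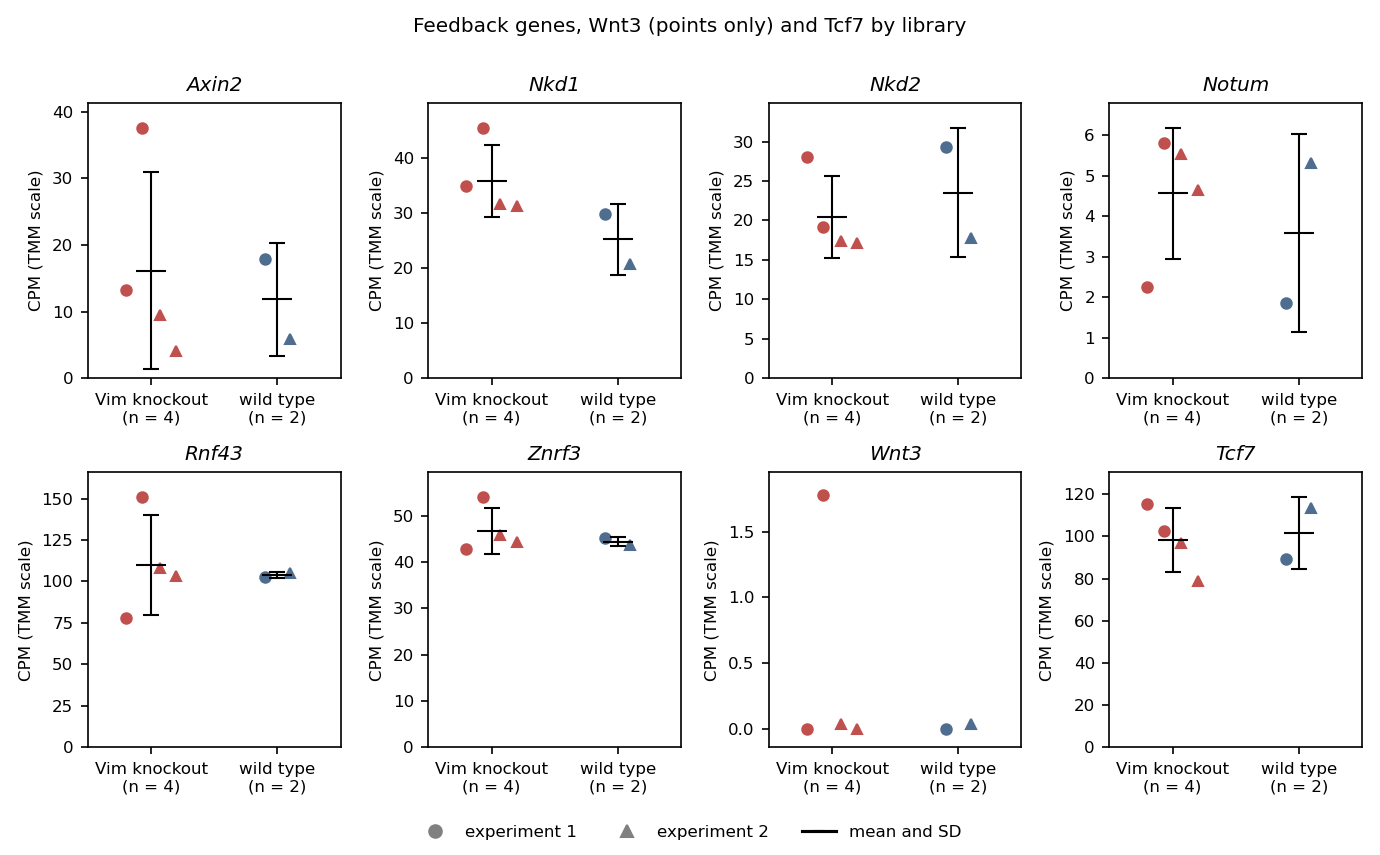
CPM in each library for feedback and regulator genes, Wnt3 and Tcf7, knockout (n = 4) beside wild type (n = 2), with the experiment given by the marker and the mean and SD drawn except for Wnt3. Knockout 2 is the highest library for Axin2 (37.5 CPM), Nkd1 (45.4 CPM), Rnf43 (151 CPM) and Wnt3 (1.78 CPM), and only Nkd1 separates the genotypes.

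The TCF/LEF genes were dominated by Tcf7, at 79 to 115 CPM in the knockout libraries and at 89.4 and 114 CPM in wild type 1 and 2, with overlapping groups (log2 fold change -0.04, SE 0.17). Tcf7l1, which encodes a mainly repressive member, was at 51.7, 61.6, 57.9 and 48.2 CPM in knockout 1 to 4 and at 47.2 and 41.1 CPM in wild type 1 and 2. The groups lay apart by a small step between knockout 4 and wild type 1 (log2 fold change 0.31, SE 0.14, edgeR adjusted p = 0.578). Exons of Tcf7l1 share 43 bases with the antisense gene Gm15401, and the counting used strand. Tcf7l2 was at 17.5 to 22.9 CPM in the knockout libraries and at 25.6 and 14.1 CPM in the wild-type libraries. Lef1 was not tested, with 7, 8, 12 and 5 counts in knockout 1 to 4 and 1 and 2 counts in wild type 1 and 2, higher in every knockout library.

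Across the 47 tested members, 15 were higher in all knockout than in both wild-type libraries and 2 were lower, against 7.6% and 8.56% of all tested genes, and 30 overlapped. The log2 fold change was above 0 for 32 members and below 0 for 15, with a median of 0.27, whereas 6626 of 13925 tested genes were above 0 and 7299 below it, with a median of -0.01. By role the median was 0.82 over 10 ligand genes, 0.01 over 10 Frizzled genes, 0.06 over 5 co-receptor genes and 0.35 over 8 secreted antagonist genes. The ligand median and the members above 0 include Wnt7a and Wnt2b (log2 fold changes 2.06 and 1.80), which passed the filter only with the knockout libraries. Wnt2b is also among the 15 members higher in all knockout libraries.

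**Figure D4:**
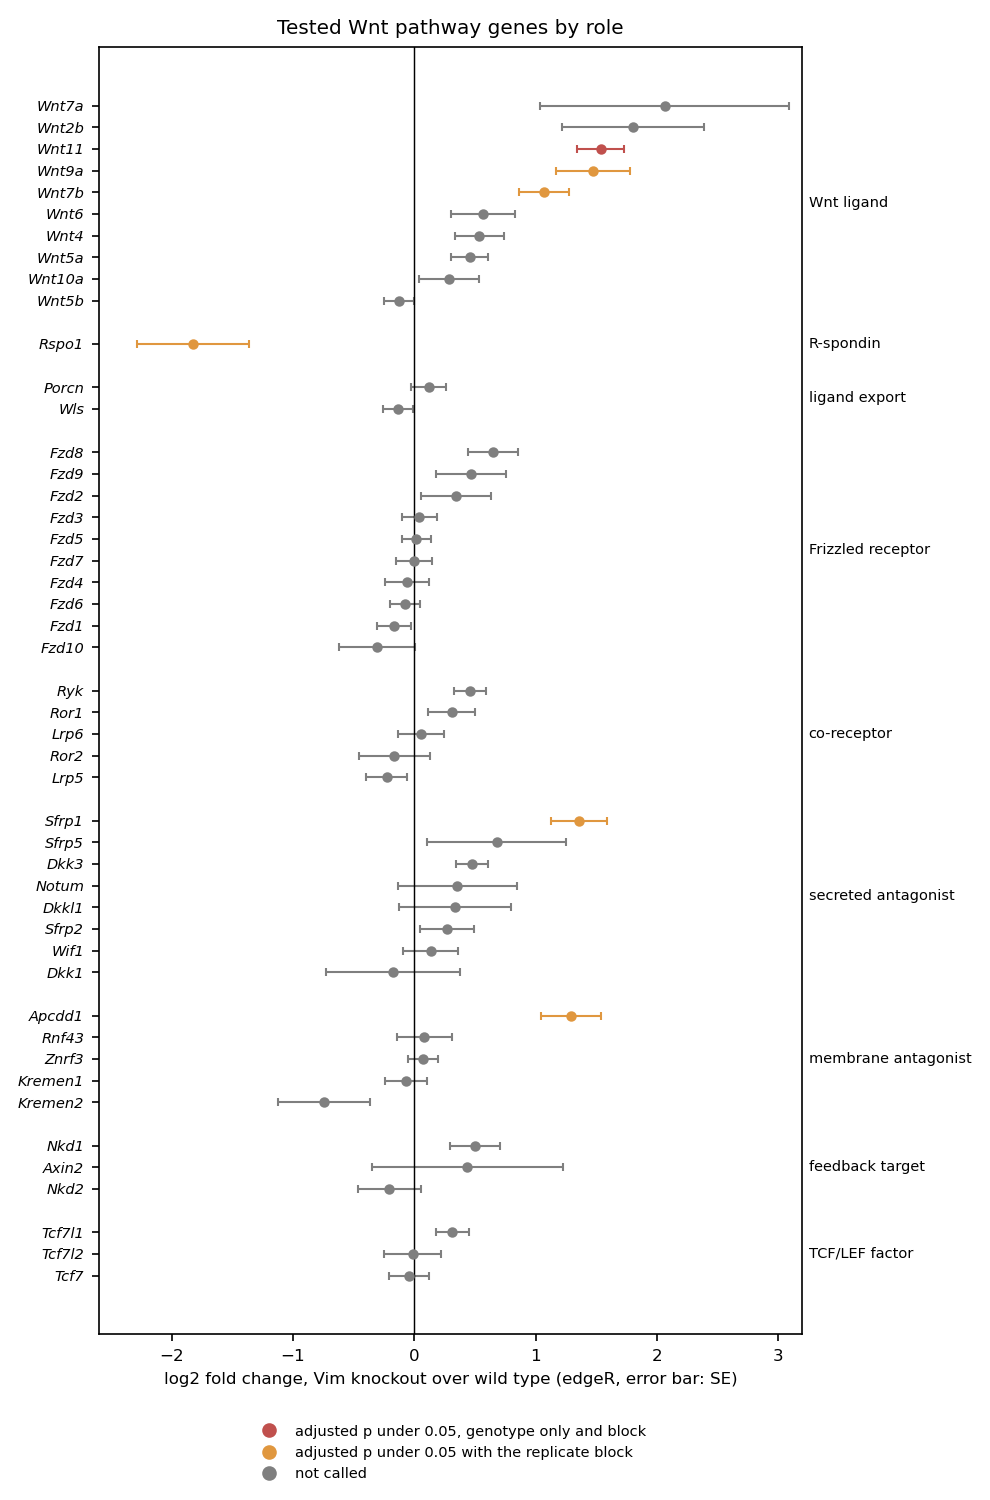
Log2 fold change (knockout over wild type, edgeR by genotype alone) of the 47 tested members with SE bars, grouped by role, with the members called in either edgeR fit marked. Of the 10 ligand genes 9 lie above 0, the Frizzled genes lie around 0, and Rspo1 is the lowest at -1.82. The 9 include Wnt7a and Wnt2b, which passed the filter only with the knockout libraries.

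Other genes of the pathway were read from 4 lists: intracellular canonical components, planar polarity and non-canonical components, further extracellular regulators, and target genes outside the naming rule. The lists too were chosen with earlier results of these data known. Of 110 listed genes 98 were tested, and edgeR by genotype alone called none, while 14 were higher and 2 lower at an unadjusted p under 0.05 (4.48% and 4.09% of all tested genes). With the replicate block 5 rose and none fell, against 1.12% and 0.438% of all tested genes. DESeq2 called 4 of these 5 higher and none lower, against 1.17% and 0.704%, and the 1 it did not call was Lbh (adjusted p = 0.486). Of 25 tested planar polarity and non-canonical genes 3 rose with the block, in which 1.12% of all tested genes were called higher. They included Daam2, a formin gene acting downstream of Dishevelled (log2 fold change 1.14, SE 0.22, adjusted p = 0.0396), and Nfatc1, a calcium-regulated transcription factor gene (0.72, SE 0.14, adjusted p = 0.0421).

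Daam2 was at 15.0, 19.6, 30.3 and 31.7 CPM in knockout 1 to 4 and at 10.6 and 10.2 CPM in wild type 1 and 2, and its knockout libraries of experiment 2 were the highest. All 4 knockout libraries lay above both wild-type libraries. Of 35 tested intracellular canonical genes 1 rose, Dact1, a Dishevelled-binding modulator gene, at 17.1, 24.3, 20.2 and 17.9 CPM in the knockout libraries and at 11.5 and 9.62 CPM in the wild-type libraries (log2 fold change 0.92, SE 0.17, adjusted p = 0.0336 with the block). Of 22 tested target genes 1 rose, Lbh, a target known from mammary basal cells (0.53, SE 0.11, adjusted p = 0.0415 with the block), whose groups overlapped. These are single genes beside the same 1.12% of all tested genes. None of the 16 tested extracellular regulators was called by edgeR or DESeq2, and 5 were higher and 1 lower at an unadjusted p under 0.05 by edgeR (4.48% and 4.09% of all tested genes).

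The experiments themselves were also compared, with genotype in the fit. Wnt10a was higher in experiment 2 than in experiment 1 (log2 difference 0.55, SE 0.12, edgeR adjusted p = 0.023), and Lrp5 was lower (-0.37, SE 0.09, edgeR adjusted p = 0.0369). These were the 2 members called, 1 in each direction, against 3.39% of all tested genes higher and 3.04% lower in experiment 2. Axin2 had the widest difference among named members, -1.79, with an SE of 0.50 (edgeR adjusted p = 0.113). The edgeR test of whether the knockout difference differed between the experiments called no member and 0% of all tested genes, and 4 members had an unadjusted p under 0.05 in it, as did 586 of all tested genes. With a single wild-type library in each experiment this does not show that the differences were alike: that of Rspo1 was -2.14 within experiment 1 and -1.08 within experiment 2.

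Marker levels of other cell types differed between the genotypes to different degrees. By genotype alone edgeR called no marker. With the replicate block it called 1 endothelial and 1 luminal progenitor marker, against 1.12% of all tested genes higher and 0.438% lower. DESeq2 called the endothelial markers Pecam1 (adjusted p = 0.000263), Cdh5, Kdr, Tie1, Emcn, Cldn5, Robo4, Mmrn2 and Plvap lower, and also Fabp4. It called Cdh19 and Ly6a higher. Over all tested genes DESeq2 called 0.704% lower and 1.17% higher. The summed endothelial levels given above did not overlap between the genotypes. All 15 endothelial markers had log2 fold changes below 0, Pecam1 being at 3.46 to 7.35 CPM in the knockout libraries and at 30.3 and 12.1 CPM in wild type 1 and 2. All 6 Schwann cell markers were above 0, with a summed level of 234 to 369 CPM in the knockout libraries and 260 and 203 CPM in the wild-type libraries. The Schwann sums overlapped, as knockout 1 (234 CPM) lay below wild type 1 (260 CPM). Summed hormone-sensing luminal markers were at 181 to 322 CPM in the knockout libraries and 330 and 145 CPM in the wild-type libraries, luminal progenitor markers at 1123 to 1507 and at 1552 and 1203 CPM, and fibroblast markers at 112 to 158 and at 169 and 143 CPM. These 3 sums also overlapped between the genotypes, with 10 of 12, 2 of 8 and 2 of 11 tested markers above 0. The luminal progenitor sum was mostly from Lcn2, at 952 to 1277 CPM in the knockout libraries and 1338 and 1047 CPM in the wild-type libraries. Elf5 was at 2.48 to 3.99 and at 8.60 and 2.31 CPM, and Kit at 3.54 to 7.86 and at 12.9 and 5.12 CPM. Summed pericyte markers were at 33.8 to 46.0 CPM in the knockout libraries and at 57.1 and 36.4 CPM in the wild-type libraries. The 10 leukocyte markers summed to 19.2 to 32.5 CPM in the knockout libraries and to 28.3 and 26.6 CPM in the wild-type libraries, mostly from Cd68, while Ms4a1 was at 0 throughout and Cd79a at 0.472 to 0.974 CPM in the knockout libraries and at 1.16 and 0.731 CPM in the wild-type libraries. Of 6 adipocyte markers 1 was tested, Fabp4, at 5.19 to 8.49 CPM in the knockout libraries and at 42.7 and 11.5 CPM in wild type 1 and 2. Lep had 7 to 11 counts in the knockout libraries and 0 counts in the wild-type libraries. Adipoq, Plin1, Cfd and Retn had at most 8 counts in any library, so the adipocyte sum is nearly all Fabp4. The part of all these markers in the Wnt results was not tested.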

How the data were processed

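RNA from sorted basal cells was read as stranded poly(A) libraries, per the labels' protocols. The authors deposited whole-number read counts for each gene, made with featureCounts 1.5.1 over exons of the UCSC mm10 genes, reverse-stranded and without the options for multi-mapped or overlapping reads, per the file headers. Reads of near-identical or overlapping exons were thus left out. The submitters' processing notes name bcl2fastq 2.17, STAR 2.5.2b and Subread 1.5.1.

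Counts were tested with edgeR 4.0.16 in R 4.3.3: filterByExpr (13925 genes tested, 9412 set aside), TMM scaling, glmQLFit (robust) and 2-sided glmQLFTest with genotype as the only term. Called means an adjusted p below 0.05 (Benjamini-Hochberg, over all tested genes). The code was tested on simulated data. CPM and RPKM were computed here on the TMM scale, with exon lengths from the files. Log2 fold changes are knockout over wild type. DESeq2 1.42.0, limma 3.58.1 (voom), other scalings and filters and leaving out each library were alternatives. The SE of a log2 fold change is its size divided by the square root of the F value of the edgeR test, which includes the spread between libraries. Floors cover counting error only.

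The labels speak of separate experiments without assigning libraries, and the day code in the file names was used as a technical batch. Deviations from the group means correlated for each knockout library with its own experiment's wild type (r = 0.32, 0.29, 0.25 and 0.41 across genes) and mirrored with the other, as 2 wild-type libraries must. The knockout deviations also cancel within their group, so these r values are not independent of one another. Given the day code and these correlations, experiment was taken as the replicate block, and the numbers in the titles were not. Values in every library are given for members called with or without the block, the 3 highest tested members per length in each role, and tested members whose groups do not overlap, and other members by count or range, with Wnt3, Dkk1 and the sums added after their values were seen. The members and lists were chosen with earlier results of these data known. Promoter windows came from RefSeq (GRCm38.p6). A result for 1 pathway gene called with the block is not reported here.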

Additional observations from a re-analysis of the deposited data

Results flagged for a closer look

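In 4 of 50 members checked, 1 knockout library stood far from the other 3, by the gap to its nearest neighbour relative to the range of the group. Chance gives such a gap in about 1 in 20 groups. Wnt3 was at 1.78 CPM in knockout 2, where the other knockout libraries had at most 1 count. Wnt4 was at 12.5 CPM in knockout 1, above 9.09 to 9.50 CPM in the others. Fzd6 was at 36.9 CPM in knockout 1, above 32.2 to 32.9 CPM in the others. Lrp6 was at 781 CPM in knockout 1, below 1043 to 1061 CPM in the others, and wild type 1 of the same experiment was at 783 CPM.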

How the results depend on the processing

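The count of members called higher was 1 by genotype alone. It was 5 with the replicate block and 5 by DESeq2, and 0 with total counts in place of TMM or with only genes over 1 CPM in at least 2 libraries kept, where Wnt11 had an adjusted p of 0.0588 and 0.0544. The count called lower was 0 by genotype alone and 1 with the block and 1 by DESeq2. Leaving out 1 library at a time, with and without the block, gave 0 to 10 members higher and 0 to 1 lower, and a group left with 1 library was assumed to vary like the other. The 10 came without knockout 1 in the fit with the block, in which 940 genes were called (4.31% higher and 2.52% lower). Members whose groups do not overlap numbered 15 to 23 higher and 2 to 7 lower with 1 library left out, where the share of all tested genes also grew, to 8.85% to 25.3% higher and 10% to 25.6% lower. Between the experiments, total counts called 2 members lower (4.56% of all genes), while no filter and DESeq2 each called 3 higher (3.79% and 5.8% of all genes) and 4 lower (3.71% and 4.81%).

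Among named members, the sign turned only where the fold change was near 0 or spread widely, and the cause was not tested. With the replicate block Fzd7 turned to -0.00019 and Tcf7l2 to 0.029. Tcf7l2 was also 0.0022 with RLE factors, 0.0026 by DESeq2 and 0.016 by limma-voom, where Fzd7 was -0.0046. With 1 library left out, log2 fold changes ran from -0.15 to 0.18 for Fzd7, -0.15 to 0.33 for Lrp6, -0.35 to 0.31 for Kremen1, -0.52 to 0.22 for Nkd2, -0.38 to 0.50 for Tcf7l2, -0.15 to 0.26 for Rnf43, -0.38 to 1.49 for Axin2, -0.028 to 0.31 for Wif1, -0.30 to 0.092 for Wnt5b and -0.35 to 0.29 for Tcf7. Wild-type cells had 2 libraries, so each call rests on that small group, and genes under about 1 CPM had too few reads for small differences to be detectable.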
